A study of Mus musculus with 27 samples.

Results

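The genes described here are the 7 of the MHC class II antigen presentation pathway H2-Aa, H2-Ab1, H2-Eb1, H2-DMa, H2-DMb1, Cd74 and Ciita, taken by symbol from the 46078 genes counted by RNA-Seq in mouse ileum. All 7 passed the filter on low counts, which left 16741 genes for testing. Epithelium was scraped from the distal ileum of 27 male C57BL/6 mice, 3 in each of 9 groups. One group received sesame oil, the vehicle, and the other 8 received the dioxin TCDD, at 0.01 and 0.03 µg/kg, 0.1 and 0.3 µg/kg, 1 and 3 µg/kg, and 10 and 30 µg/kg. Gavage was repeated after each 4 d over 28 d, and all mice were at postnatal day 56 at the end. TCDD is a persistent ligand of the aryl hydrocarbon receptor (AhR), a transcription factor. The data describe males of this 1 strain only.

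MHC class II molecules are heterodimers of an alpha and a beta chain that display peptides from ingested proteins to CD4 T cells. The mouse classical molecules are H2-A, made of the H2-Aa and H2-Ab1 chains, and H2-E, whose beta chain is H2-Eb1. Cd74, the invariant chain, fills the groove of newly made heterodimers, and H2-DM, made of H2-DMa and H2-DMb1, exchanges its remnant for peptide. Ciita is the coactivator that switches the pathway on. It does not bind DNA itself but joins a complex of RFX, CREB and NF-Y proteins on paired sequence elements, the X and Y boxes, in front of class II genes. Interferon gamma induces Ciita. Professional antigen-presenting cells (B cells, dendritic cells and macrophages) express class II constitutively, and enterocytes of the small intestine express it too. C57BL/6 mice carry a defective H2-E alpha gene and so make no H2-E at the cell surface. In the present libraries that gene, listed as H2-Ea-ps, had 0 to 2 counts per mouse and 2 counts in all 27 mice, whereas its partner H2-Eb1 had 1575 to 3696 counts per mouse.

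The paired X and Y boxes are the sequence feature that the class II genes are known to share, and the stretches that hold them are shown for the 2 genes whose stretch lies outside every annotated exon. The sequences are from RefSeq (GRCm38.p6), read 5′ to 3′ on the strand of the gene, with the cores of the X box and of the Y box in capitals. The H2-Aa stretch is chr17:34287847-34287924 on the minus strand, and the H2-Eb1 stretch is chr17:34305756-34305832 on the plus strand.
H2-Aa: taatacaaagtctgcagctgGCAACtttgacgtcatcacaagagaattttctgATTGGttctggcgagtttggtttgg
H2-Eb1: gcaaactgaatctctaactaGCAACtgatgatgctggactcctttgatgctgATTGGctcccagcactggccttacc

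The search was for GNAAC followed by ATTGG after 20 to 35 bases, in the 250 bases before each RefSeq gene start and on the strand of the gene, and its letters were chosen after these windows had been read. Of the 7 genes, 4 had an entry in the promoter table used, and 3 of these 4 held the arrangement. The X core began at position -81 in H2-Aa, -91 in H2-Eb1 and -94 in H2-DMb1, and the cores were 28, 27 and 28 bases apart. The H2-DMb1 cores lie inside the first exon of the GENCODE transcript, so that stretch is not printed. Neither of the 2 H2-DMa windows held the arrangement. H2-Ab1, Cd74 and Ciita had no entry. Among all 32851 windows, 1.15% held the arrangement on the strand of the gene and 2.25% on either strand. The Y core alone (ATTGG on either strand) was in 33.8% of windows. The core of the element that AhR binds (GCGTG on either strand) was in 28.2% of all windows and in none of the 5 windows of these genes.

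**Figure D1:**
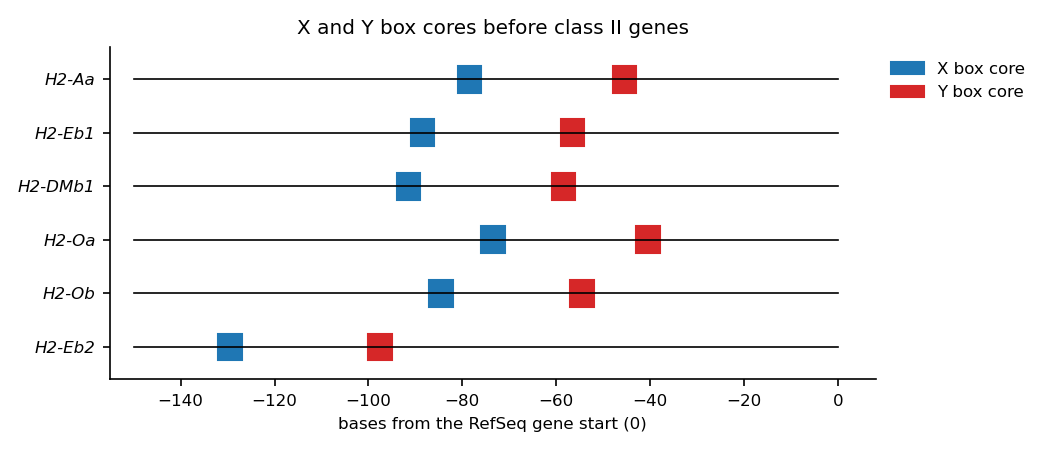
Positions of the X box core (blue) and Y box core (red) in bases from the RefSeq gene start for the class II genes whose window held both. The Y core began between position -100 and -43, and the cores were 25 to 28 bases apart in all 6 genes.

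H2-Oa, H2-Ob and H2-Eb2, 3 further class II chain genes, held the same arrangement, with 28, 25 and 27 bases between the cores. Of the 97 genes with a window among all gene lists used here, 8 held it. The other 2 were Sdc1, a plasma cell and epithelial proteoglycan, and Icosl, a co-stimulatory ligand, with 27 and 34 bases between the cores.

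Counts on genes totalled 12.26 M to 17.14 M per mouse. Libraries reused a set of indexes. The first use of an index falls on the mice given vehicle to 0.3 µg/kg and 1 mouse at 1 µg/kg, 16 in all. The other 11 mice carry the second use. From 3 µg/kg upward every mouse is of the second use and every vehicle mouse of the first. A fit with index use as a covariate can separate the 2 only through the 3 mice at 1 µg/kg, of which 1 is of the first use and 2 of the second. The treatment itself was visible in AhR target genes. Cyp1a1, a cytochrome P450, was at 0 to 0.211 CPM (the count of a gene relative to the TMM-scaled size of its library) with vehicle and at 1062, 1881 and 2279 CPM in the mice given 30 µg/kg, and 4 of 5 AhR targets tested were higher at that dose. Enterocyte markers summed to between 15170 and 34640 CPM per mouse.

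Scaled to library size by the trimmed mean of M-values (TMM) and divided by exon length, the 7 genes spanned a wide range in vehicle mice. The invariant chain Cd74 was the most abundant at 892.9 CPM per kilobase. The H2-Ab1, H2-Aa and H2-Eb1 chains followed at 170.5, 131.2 and 103.6 CPM per kilobase. H2-DMb1 was at 24.2, H2-DMa at 15.7 and the coactivator Ciita at 5.89 CPM per kilobase. These are group means of 3 mice and depend on the summed exon length, which is longer than any single transcript. Within vehicle mice the coefficient of variation of the CPM ran from 3.33% (H2-Aa) to 14.6% (Ciita).

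All 7 class II genes had lower means at 10 and 30 µg/kg than with vehicle, whereas no difference passed the test at 3 µg/kg or below, where the mean of Ciita was up to 0.45 higher on the log2 scale (0.1 µg/kg). At 30 µg/kg all 7 genes had lower means than vehicle, with fold changes of 0.760 (H2-Ab1) to 0.619 (H2-DMb1). Of them 1, H2-DMb1, fell past both limits used for a call, an adjusted p no higher than 0.05 and a change of 1.5-fold or more. Without the fold limit 6 of 7 passed, but only H2-DMb1 did so with each single mouse left out: 1 of 7 passed without mouse 67, 4 without mouse 65 and 7 without mouse 68, and 3, 4 and 4 without vehicle mouse 2, 3 and 4. The shares of all tested genes that were lower by these rules at this dose were 3.98% and 8.49%. The median log2 fold change of the 7 was -0.49, against 0.02 over all genes tested. In bulk tissue, fewer class II expressing cells and less class II RNA per cell cannot be told apart.

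**Figure D2:**
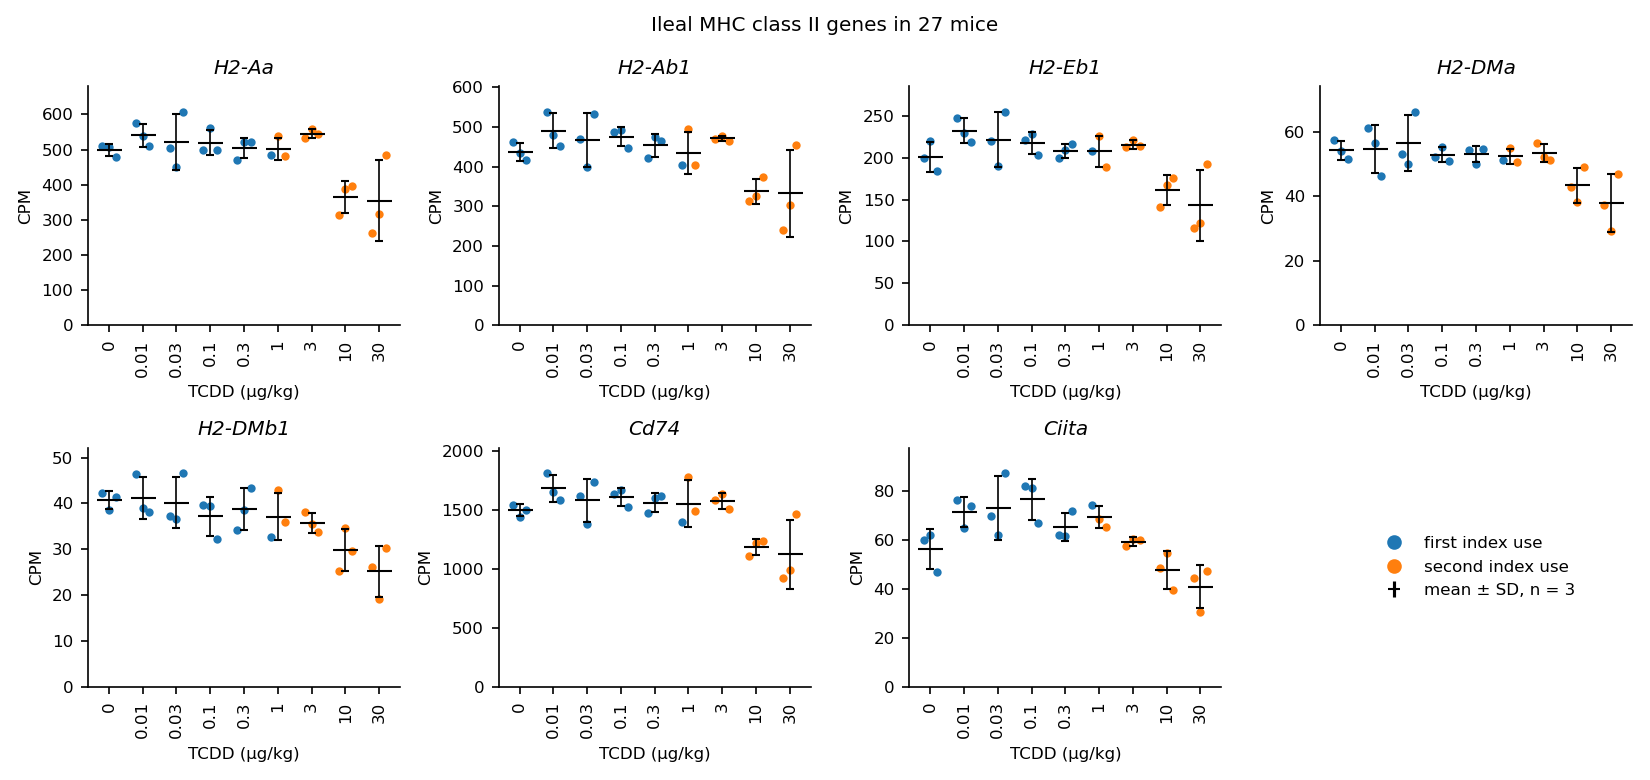
TMM-scaled CPM of each class II gene in each mouse against TCDD dose in µg/kg (0 is vehicle), coloured by index use, with the mean ± SD of 3 mice per group. In each panel 3 (Ciita) to 5 of the 6 mice at 10 and 30 µg/kg lie below all 21 other mice, and 1 mouse at 30 µg/kg is close to vehicle for the 3 chains and Cd74.

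H2-Aa encodes the alpha chain of H2-A. It was at 509, 506 and 479 CPM in the 3 vehicle mice. In treated mice it was at 576, 537 and 510.3 CPM at 0.01 µg/kg, at 506, 450.0 and 608 CPM at 0.03 µg/kg and at 497, 561 and 500.0 CPM at 0.1 µg/kg. The next 3 doses gave 470.3, 521 and 520.3 CPM (0.3 µg/kg), 485, 538 and 481 CPM (1 µg/kg), and 533, 559 and 544 CPM (3 µg/kg). The mice given 10 µg/kg had 313, 387 and 397 CPM, and those given 30 µg/kg had 262, 318 and 483 CPM. The 3 mice at 10 µg/kg and 2 of 3 at 30 µg/kg were lower than every one of the 21 mice given vehicle to 3 µg/kg, and the third mouse at 30 µg/kg overlapped vehicle. The log2 fold change at 30 µg/kg was -0.49 ± 0.15 (SE, adjusted p = 0.0227 by edgeR's quasi-likelihood test), a fold change of 0.711 that did not reach the 1.5-fold limit.

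H2-Ab1, the beta chain of H2-A, was at 462, 435 and 417 CPM in vehicle mice. Over the 21 mice given vehicle to 3 µg/kg it ran from 398 to 538 CPM with a median of 465 CPM. The 10 µg/kg group had 313, 326 and 373 CPM and the 30 µg/kg group 241, 303 and 454 CPM. The same single mouse at 30 µg/kg again lay within the vehicle range. The change at 30 µg/kg, -0.40 ± 0.15 on the log2 scale, missed the threshold (adjusted p = 0.0684), the only one of the 7 to do so without the fold limit. H2-Aa and H2-Ab1 kept close proportion from mouse to mouse: their ratio per exon length was 0.677 to 0.813 over 27 mice, with a coefficient of variation of 4.57%.

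H2-Eb1, the H2-E beta chain, had no counterpart at the RNA level in its alpha chain gene, as given above. It was at 199.8, 220.0 and 184 CPM in vehicle mice, and its range over the 21 mice up to 3 µg/kg was 184 to 255 CPM. The 10 µg/kg mice were at 141, 168 and 176 CPM and the 30 µg/kg mice at 116, 122 and 192 CPM. All 6 values but the highest lay below those 21 mice. The log2 fold change at 30 µg/kg was -0.49 ± 0.14 (SE, adjusted p = 0.0171). Its ratio to H2-Ab1 per exon length was 0.531 to 0.680 with a coefficient of variation of 5.4%, although H2-E heterodimers are not made in this strain.

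Both chains of the peptide exchange factor H2-DM were lower at the 2 highest doses. H2-DMa was at 57.2, 54.0 and 51.4 CPM in vehicle mice, 42.9, 38.1 and 49.0 CPM with 10 µg/kg, and 37.2, 29.1 and 47.0 CPM with 30 µg/kg. All 6 mice at these doses were below all 3 vehicle mice, and 4 of the 6 were below all 21 mice given vehicle to 3 µg/kg (46.3 to 66.2 CPM). The log2 fold change at 30 µg/kg was -0.52 ± 0.13 (SE, adjusted p = 0.00828).

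H2-DMb1 had the largest fall of the 7. It was at 42.2, 38.6 and 41.3 CPM in vehicle mice. In order of dose it was then at 46.5, 39.0 and 38.1 CPM (0.01 µg/kg), 37.3, 36.7 and 46.6 CPM (0.03 µg/kg), 39.6, 39.5 and 32.4 CPM (0.1 µg/kg), and 34.3, 38.5 and 43.5 CPM (0.3 µg/kg). The next doses gave 32.7, 42.9 and 35.9 CPM (1 µg/kg) and 38.1, 35.5 and 33.8 CPM (3 µg/kg). The 2 highest doses gave 25.3, 34.6 and 29.6 CPM (10 µg/kg) and 26.2, 19.2 and 30.2 CPM (30 µg/kg). All 3 mice at 3 µg/kg (38.1 CPM at most) were below all 3 vehicle mice (38.6 CPM at least). At each lower dose some mice, but not all, were below them too. The log2 fold change at 3 µg/kg, -0.19 ± 0.14, did not pass the test (adjusted p = 0.626 by edgeR). At 30 µg/kg it was -0.69 ± 0.15 (SE, adjusted p = 0.00227), a fold change of 0.619. Without the lowest mouse at 30 µg/kg (mouse 67) the value was -0.53 (adjusted p = 0.0256) and the fold limit was no longer met. H2-DMb1 shares 22.7% of its 50-base stretches with its neighbour H2-DMb2, so reads from those stretches cannot be assigned to either with certainty. H2-DMb2 had a mean of 5.78 CPM and the other 6 genes shared 0 to 0.488% with any gene.

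Cd74, the invariant chain, was at 1547, 1445 and 1506 CPM in vehicle mice. Its 21 values up to 3 µg/kg were between 1386 and 1815 CPM with a median of 1587 CPM. The 10 µg/kg mice were at 1112, 1218 and 1236 CPM, below all of those 21, and the 30 µg/kg mice at 921, 989 and 1464 CPM. As with the chains, 1 mouse at 30 µg/kg was inside the vehicle range. The log2 fold change at 30 µg/kg was -0.41 ± 0.13 (SE, adjusted p = 0.0271).

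Ciita, the coactivator of the pathway, had higher means at every dose up to 3 µg/kg than with vehicle, though none passed the test. It was at 59.8, 61.9 and 46.8 CPM in vehicle mice, then at 76.2, 64.6 and 73.7 CPM (0.01 µg/kg), 69.5, 61.8 and 87.2 CPM (0.03 µg/kg), and 81.8, 81.1 and 67.0 CPM (0.1 µg/kg). All 3 mice at 0.01, at 0.1 and at 1 µg/kg were above all 3 vehicle mice, but the share of all genes with such a split was not counted. The middle doses gave 62.0, 61.7 and 71.7 CPM (0.3 µg/kg), 74.3, 68.3 and 65.2 CPM (1 µg/kg) and 57.3, 60.4 and 60.1 CPM (3 µg/kg). The highest gave 48.7, 54.8 and 39.4 CPM (10 µg/kg) and 44.6, 30.7 and 47.1 CPM (30 µg/kg). The low-dose differences of 0.35, 0.38 and 0.45 on the log2 scale (SE 0.147 each) at 0.01, 0.03 and 0.1 µg/kg did not pass the test, with adjusted p of 1, 1 and 0.574 by edgeR, nor did that of 0.30 at 1 µg/kg (adjusted p = 0.357). Part of each rests on 1 vehicle mouse at 46.8 CPM: without it the values at 0.01 and 0.1 µg/kg were 0.23 and 0.33. At 30 µg/kg the log2 fold change was -0.46 ± 0.15 (SE, adjusted p = 0.0344), with 2 of 3 mice below all vehicle mice.

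**Figure D3:**
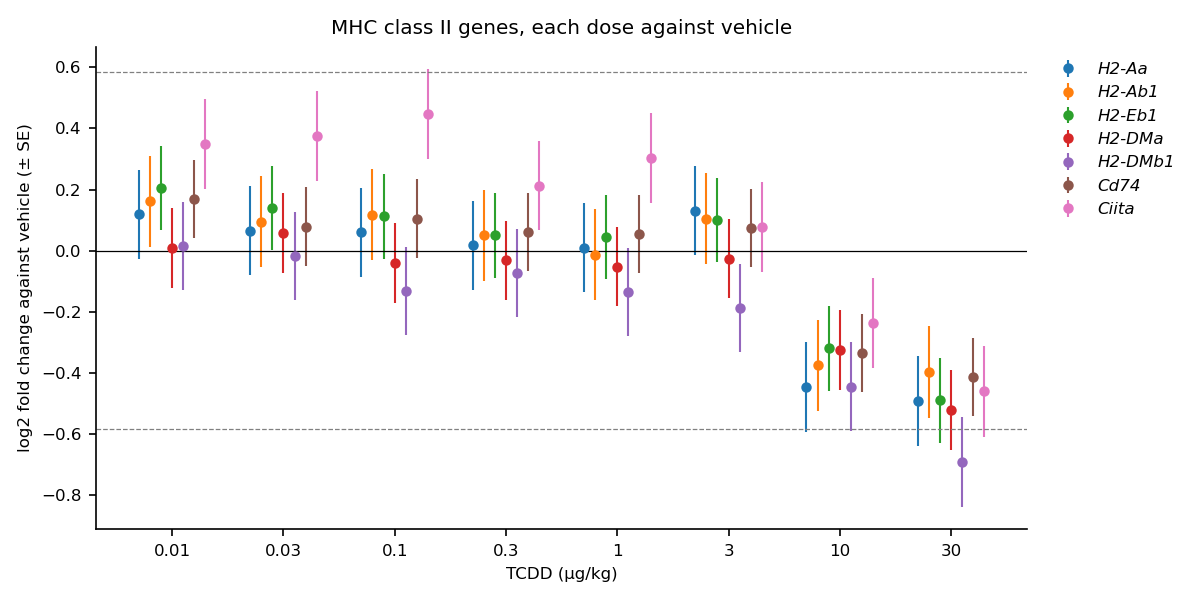
Log2 fold change against vehicle (± SE, edgeR) of the 7 class II genes at each TCDD dose in µg/kg, with dashed lines at the 1.5-fold limit. All 7 lie below 0 at 10 and 30 µg/kg, only H2-DMb1 at 30 µg/kg lies beyond the limit, and Ciita is the highest of the 7 at every dose up to 1 µg/kg.

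At doses up to 3 µg/kg 0 of the 7 genes passed the test by edgeR or DESeq2 at any dose. The shares of all genes that passed, in either direction, were 0% at 0.01, 0% at 0.03, 0% at 0.1 and 0% at 0.3 µg/kg, 0.591% at 1 µg/kg and 1.11% at 3 µg/kg. At an unadjusted p under 0.05 there was 1 gene, Ciita, at each of the lowest 3 doses and 0 at 0.3 to 3 µg/kg. Of all 16741 genes tested, 699, 591, 1037, 1247, 2356 and 2289 had such a p from 0.01 to 3 µg/kg, in either direction. The medians of the 7 log2 fold changes were 0.16, 0.08, 0.10, 0.05, 0.01 and 0.08 from 0.01 to 3 µg/kg. At 10 µg/kg 0 of 7 passed by either tool, where 0.771% of all genes were lower past both limits. Of the 7, 6 had an unadjusted p under 0.05, as did 2905 of all 16741 genes tested, in either direction. The log2 fold changes of the 7 at 10 µg/kg were -0.24 (Ciita) to -0.45 (H2-Aa) with adjusted p of 0.0914 to 0.445. Exact permutation tests of 3 against 3 mice gave p = 0.1, the smallest they can give, for 6 of the genes at 10 µg/kg and p = 0.3 for Ciita.

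The 3 mice at 30 µg/kg were unlike one another. Relative to the vehicle mean, the median of the 7 genes was -0.70 on the log2 scale in mouse 65, -0.72 in mouse 67 and -0.06 in mouse 68. All 7 genes were below all vehicle mice in mice 65 and 67, and 2 of 7 (H2-DMa and H2-DMb1) in mouse 68. The share of all genes below all vehicle mice was not counted, so these counts have no background beside them. Mouse 65 had the lowest value of all 27 mice for H2-Aa, H2-Ab1, H2-Eb1 and Cd74, and mouse 67 for H2-DMa, H2-DMb1 and Ciita. Coefficients of variation at 30 µg/kg were 21.7% to 32.8%, above those of the other groups for every one of the 7. The number of genes past both limits moved with single mice: it was 0 of 7 without mouse 67 and 6 of 7 without mouse 68. It was 1 of 7, H2-DMb1, without mouse 65 or any 1 vehicle mouse. Without mouse 67 the adjusted p of the other 6 was 0.079 (H2-DMa) to 0.237 (H2-Ab1), and the log2 fold change of Ciita was -0.29 in place of -0.46. Without mouse 65 that of H2-Ab1 was -0.24 in place of -0.40, and without mouse 68 H2-Aa, H2-Ab1, H2-Eb1 and Cd74 were at -0.78, -0.69, -0.76 and -0.65. In mouse 68, Cyp1a1 was at 2279 CPM, the highest of the 3.

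With index use as a covariate, H2-DMb1 at 30 µg/kg against vehicle was at -0.96 ± 0.26 on the log2 scale (SE, adjusted p = 0.0483), and the other 6 were at -0.31 (Ciita) to -0.64 (Cd74) with adjusted p of 0.147 to 0.613. At 3 µg/kg, where the mice are of the second use as well, the 7 genes were at -0.19 (H2-DMb1) to 0.13 (H2-Aa) against vehicle in the fit without the covariate. Mice at 3 and 30 µg/kg carry the same index use and were compared with each other. All 7 genes were lower at 30 than at 3 µg/kg, with fold changes of 0.712 (Cd74) to 0.650 (H2-Aa), and 2 of 7 passed the test, where 0.245% of all genes were lower. H2-Aa differed by -0.62 ± 0.15 on the log2 scale (adjusted p = 0.0347) and H2-Eb1 by -0.59 ± 0.14 (adjusted p = 0.0346). The other 5 differed by -0.49 to -0.54 with adjusted p of 0.0596 to 0.0998. These calls changed with the loss of a mouse. Without any 1 of the mice at 3 µg/kg, or without mouse 67, 0 of 7 passed by edgeR (adjusted p of H2-Aa 0.0865 to 0.189), and without mouse 65 only Ciita passed both limits. Without mouse 68 5 passed, all but H2-DMb1 and Ciita.

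Over the rank of the dose, all 7 genes had a downward trend in the 27 mice, with slopes of -0.053 (Cd74 and H2-DMa) to -0.073 (Ciita and H2-DMb1) log2 units per dose step, and 7 of 7 passed the test, where 12.8% of all genes were lower. Each of the 7 passed with any 1 mouse left out. The slopes were not alike within each index use. Within the 16 mice of the first use 0 of 7 passed by edgeR, with slopes of -0.04 to 0.05 per step, that of Ciita upward. Within the 11 mice of the second use the slopes were -0.19 to -0.25 per step and 1 of 7, Ciita, passed (adjusted p = 0.0221). With index use as a covariate 0 of 7 passed, with adjusted p of 0.0981 to 0.774. A test for any difference among the 9 groups passed 6 of 7 genes (9.53% of all genes passed). H2-Ab1 was the exception with adjusted p = 0.0566.

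Markers of other cells that a scraping can hold were summed per mouse. The smooth muscle sum ran from 25.01 to 109.5 CPM with vehicle, from 45.5 to 394 CPM with 10 µg/kg and from 36.2 to 345 CPM with 30 µg/kg. By edgeR 0 of 6 smooth muscle markers passed the test at either dose, with 6 and 0 at an unadjusted p under 0.05. Of all 16741 genes tested, 2905 and 5230 had such a p at 10 and 30 µg/kg. The 3 highest sums belong to mice 57 and 58 (10 µg/kg) and mouse 65 (30 µg/kg). Mouse 67, with class II genes as low as mouse 65, had a smooth muscle sum of 78.6 CPM, within the vehicle range. Without mice 57, 58 and 65, a selection made after their values were seen, H2-DMb1 at 30 µg/kg was at -0.76 (adjusted p = 0.00175), H2-DMa at -0.55 (adjusted p = 0.00923), Ciita at -0.56 (adjusted p = 0.0131) and H2-Eb1 at -0.39 (adjusted p = 0.0428), while H2-Aa was at -0.35 (adjusted p = 0.0548), Cd74 at -0.32 (adjusted p = 0.0707) and H2-Ab1 at -0.24 (adjusted p = 0.204). In that selection the trend passed for 3 of 7 genes and the test of any difference for 2 of 7.

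Of 5 plasma cell markers tested, 4 were lower than vehicle at 10 and at 30 µg/kg. The sum of the 5 ran from 395.5 to 527 CPM with vehicle, from 283 to 317 CPM with 10 µg/kg and from 246 to 338 CPM with 30 µg/kg. Sdc1 and Jchain were the most abundant, at means of 158 and 190 CPM, and Sdc1 was not lower (0.16 ± 0.10 at 30 µg/kg). Prdm1 was at -0.34 ± 0.27 and Derl3 at -1.08 ± 0.46. At 30 µg/kg 2 of 5 fell past both limits, where 3.98% of all genes did. These were Jchain, the joining chain of secreted immunoglobulin (log2 fold change -1.61 ± 0.34, adjusted p = 0.00195), and Mzb1, a chaperone of antibody secretion (-1.43 ± 0.31, adjusted p = 0.00288). Class II RNA of plasma cells was not measured apart from that of other cells. Dendritic cell and macrophage markers summed to 136 to 174 CPM with vehicle, to 97.0 to 149 CPM with 10 µg/kg and to 105 to 137 CPM with 30 µg/kg. Of 15, 1 fell, the integrin Itgam (-1.78 ± 0.19, adjusted p = 1.98e-06), and the list's median was -0.34. At 10 µg/kg Itgam fell too (-0.79 ± 0.18, adjusted p = 0.0132), and the median was -0.22. General leukocyte markers had 0 of 6 and T and intraepithelial lymphocyte markers 0 of 12 past the test at 30 µg/kg by edgeR, with 0 and 1 at an unadjusted p under 0.05. At 10 µg/kg 11 of the 12 T cell markers were below vehicle, as were 50.4% of all genes. The median of the 12 was -0.37, beside -0.34 for the 7 class II genes. Of the 12, 3 had an unadjusted p under 0.05, as did 2905 of all 16741 genes tested. Among these 3 markers Cd8b1, the CD8 beta chain, passed the test (-2.02 ± 0.44, adjusted p = 0.0105). It has a low mean of 1.47 CPM and is named after its value was seen. The T cell marker sum was 309 to 356 CPM with vehicle, 209 to 329 CPM with 10 µg/kg and 215 to 362 CPM with 30 µg/kg. Enterocyte markers summed to 19860 to 21590 CPM with vehicle and, with 30 µg/kg, to 15170 CPM (mouse 65), 34640 CPM (mouse 67) and 31590 CPM (mouse 68). Of 9, 1 rose, the ileal bile acid transporter Slc10a2 (0.75 ± 0.24, adjusted p = 0.0339). The part of any of these cell types in the class II values was not tested.

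No other class II chain passed the test. Of the 9 tested genes for other chains and peptide loading, 0 passed at 30 µg/kg by edgeR and 0 had an unadjusted p under 0.05, with a median of 0.21. The lysosomal proteases Ctss and Lgmn, which trim the invariant chain and antigens, were at 0.29 ± 0.17 and -0.44 ± 0.26, and the thiol reductase Ifi30, which opens disulfides of antigens, was at 0.21 ± 0.10. H2-Oa and H2-Ob, the chains of the H2-DM inhibitor H2-O, were at 0.18 ± 0.60 and 0.32 ± 0.53. H2-DMb2, the second DM beta chain, was at 0.21 ± 0.46 and H2-Eb2 at -0.16 ± 0.53, with wide errors at means of 2.28 to 10.5 CPM. H2-Ob, as the most abundant of these 4, was at 7.74, 9.90 and 3.67 CPM with vehicle and at 5.37, 10.3 and 11.0 CPM with 30 µg/kg, and the groups overlapped. These 4 genes and March1, the ubiquitin ligase that turns over class II, were singled out after their values were seen.

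The 7 genes and the 5 singled out above differed in the genes they varied with. Pearson's r was taken across the 27 mice on log2 CPM, as a description of libraries that share their depth and their content. Each of the 7 genes had r = 0.80 (Ciita) to 0.98 (H2-Eb1) with the mean of the other members and 0.09 (H2-DMa) to 0.40 (Ciita) with the mean of 11 B cell markers. H2-DMb2, H2-Oa, H2-Ob, H2-Eb2 and March1 had r = 0.85 to 0.97 with the B cell markers and 0.14 to 0.43 with the class II mean. In the 21 mice given vehicle to 3 µg/kg the split was seen for 6 of the 7, with r of 0.64 to 0.90 with the class II mean and 0.11 to 0.35 with the B cell markers, and for the other 5 genes, with 0.22 to 0.41 and 0.86 to 0.97. Ciita was the exception, with r = 0.51 for class II and 0.56 for B cells. The class I presentation genes B2m, H2-K1, Tap1 and Nlrc5 also varied with the class II mean, so this likeness was not particular to class II genes. Their r with it ran from 0.48 (H2-K1) to 0.76 (B2m) over 27 mice. In the 21 mice it ran from 0.5 (Nlrc5) to 0.86 (H2-K1). With the B cell markers it was 0.04 (Tap1) to 0.20 (B2m) over 27 mice. After each group's mean was subtracted, the 7 had r = 0.49 (Ciita) to 0.93 (H2-Eb1) with the mean of the other members. With the B cell markers they then had r = -0.06 (H2-DMa) to 0.43 (Ciita), so Ciita was again about as close to both. The summed B cell markers varied from 40.3 to 203 CPM over the 27 mice, and 0 of 11 passed the test at 30 µg/kg by edgeR, with 0 at an unadjusted p under 0.05. The summed CPM of the 7 class II genes was 2725 to 2877 CPM with vehicle, where the B cell sum ran from 40.3 to 138 CPM. The part of B cells in the class II values was not tested.

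**Figure D4:**
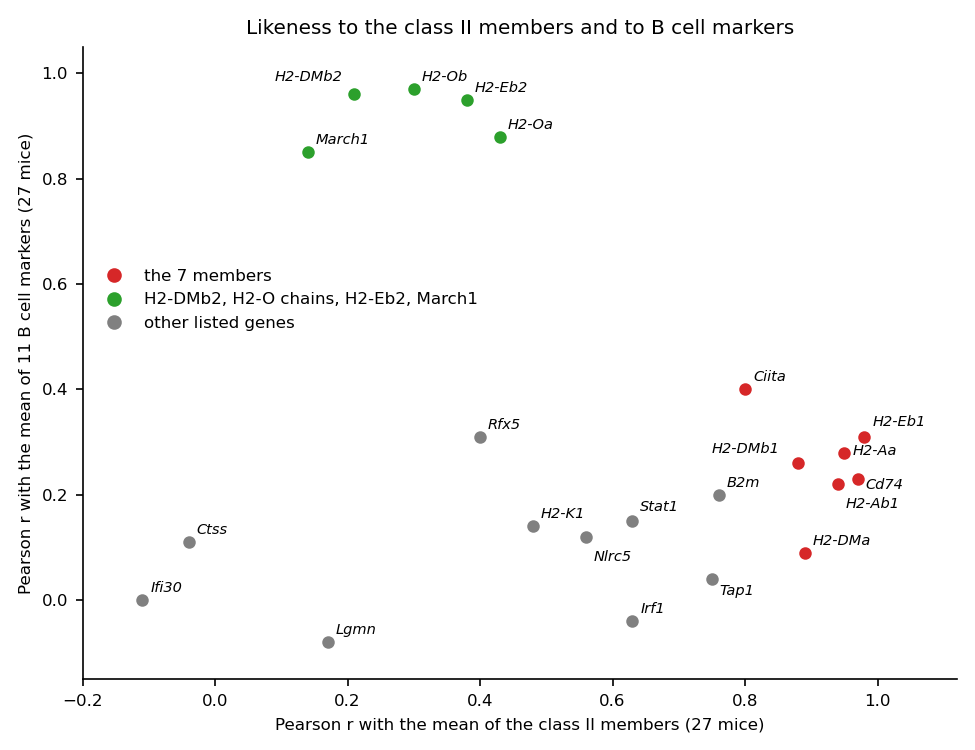
Pearson's r over 27 mice of each gene's log2 CPM with the mean of the class II members (the gene itself left out, horizontal axis) and with the mean of 11 B cell markers (vertical axis). The 7 members (red) lie at 0.80 to 0.98 on the horizontal axis and at most 0.40 on the vertical axis. The 5 genes in green, H2-DMb2, H2-Oa, H2-Ob, H2-Eb2 and the ubiquitin ligase March1, lie at 0.85 to 0.97 on the vertical axis.

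No gene for the proteins that Ciita joins on the X and Y boxes passed the test. Of the 7 genes of this complex, 0 passed at 30 µg/kg by edgeR, 0 had an unadjusted p under 0.05, and the median was 0.04. Creb1 was at 0.04 ± 0.12, the NF-Y subunit Nfya at -0.04 ± 0.10 and Nfyc at -0.14 ± 0.10. In interferon gamma signalling, which induces Ciita, 2 of 10 genes fell past both limits and the median was 0.03. Socs1, a feedback inhibitor of JAK kinases, was at -1.58 ± 0.28 (adjusted p = 0.000402) and Il18, a cytokine that drives interferon gamma release, at -0.75 ± 0.25 (adjusted p = 0.0374). Ifng itself was too low to test, with 0 to 9 counts per mouse.

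Some genes of MHC class I presentation, which serves CD8 T cells, were lower as well. At 30 µg/kg 4 of 13 fell and the median of the list was -0.29. These were the 3 immunoproteasome subunits Psmb10 (-0.59 ± 0.10, adjusted p = 0.00021), Psmb8 (-0.70 ± 0.12, adjusted p = 0.000288) and Psmb9 (-0.77 ± 0.16, adjusted p = 0.00187), and the peptide transporter subunit Tap1 (-0.81 ± 0.14, adjusted p = 0.000278). Of the 5 co-stimulation genes tested 1 rose, Icosl (2.3-fold, adjusted p = 0.000849). Its window held the X and Y arrangement with 34 bases between the cores, wider than in the class II genes.

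**Figure D5:**
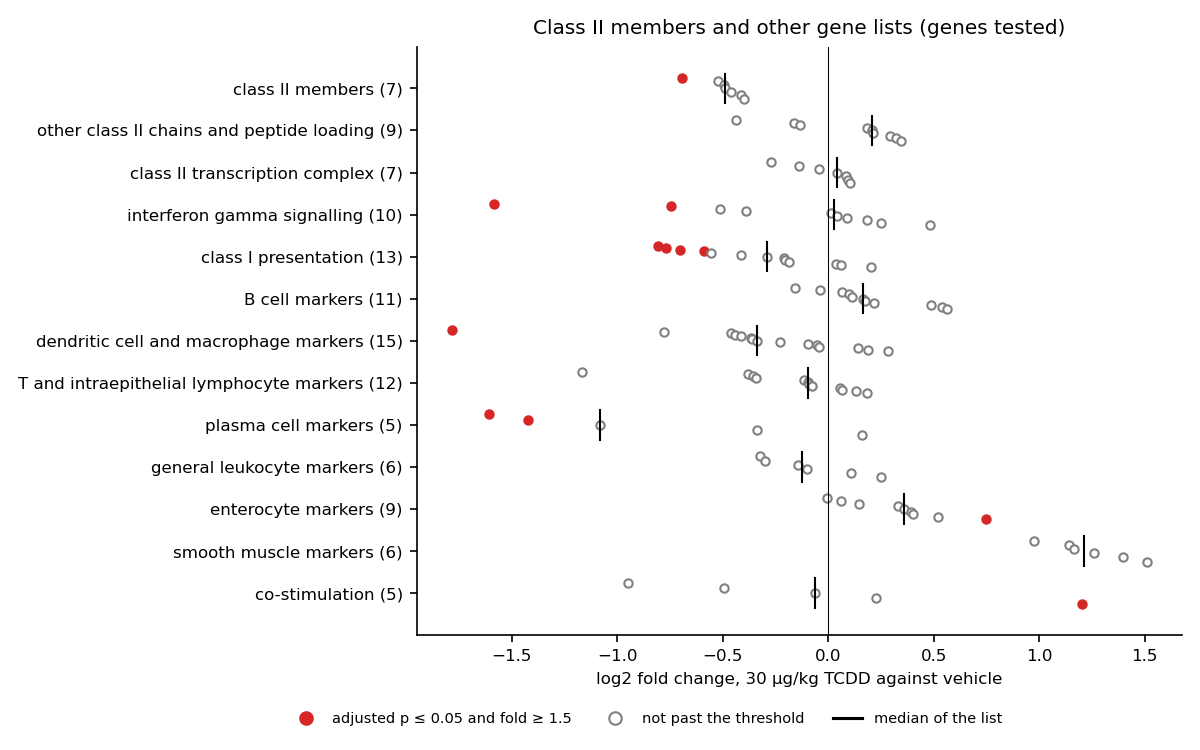
Log2 fold change at 30 µg/kg TCDD against vehicle for each tested gene (points, red where past both limits) of the class II members and 12 other lists, with the median of each list as a bar. The 7 class II members all lie below 0, from -0.40 to -0.69.

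Over all 27 mice the genes outside the 7 whose log2 CPM was most like the members' mean were Gm49342, Fam69a, Ubd, Tspan14, Psmb8, Gbp8, Misp, Apol10a, Pnp2 and an immunoglobulin heavy chain variable segment, with r between 0.82 and 0.86. All of them were lower at 30 µg/kg, by -0.47 (Misp) to -2.9 (the segment, at a mean of 0.906 CPM) on the log2 scale. In the 21 mice given vehicle to 3 µg/kg their r was lower, -0.06 (the segment) to 0.68 (Ubd). Ubd encodes a ubiquitin-like protein, Gbp8 a guanylate-binding protein and Misp an actin-bundling protein, and Pnp2 a purine phosphorylase. Psmb8 and Ubd lie on chromosome 17, as do 5 of the 7 class II genes. With each group's mean subtracted, the closest were Tspan14 (r = 0.82), Tap2 (r = 0.82), Misp (r = 0.77), Tmem167b (r = 0.75) and Gm49342 (r = 0.74). Tap2, the other subunit of the peptide transporter, was at -0.20 on the log2 scale at 30 µg/kg (adjusted p = 0.246 by edgeR). Tmem167b was at 0.04 (adjusted p = 0.816 by edgeR). Over all 27 mice Tap2 had r = 0.76 and Tmem167b 0.27, and in the 21 mice up to 3 µg/kg they had 0.64 and 0.48. The 7 genes spread most among the mice at 30 µg/kg, so that group can weigh most in the r within groups.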

How the data were processed

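RNA-Seq was made from total RNA of scraped distal ileal epithelium of 27 mice with the Ovation Mouse RNA-Seq kit. According to the submitters' processing notes and the methods, reads were checked with FastQC 0.11.3, trimmed with Trimmomatic 0.33, aligned to GRCm38 with TopHat2 2.1.0, converted with SAMtools 1.2.0 and counted with HTSeq 0.6.1. DESeq is also named there. The counting options are not given in the sources used here. The deposited values are raw counts per Ensembl gene, 1 table per mouse, not normalized by the authors. Rows that name no gene were left out, of which reads on no feature were 44.48% to 49.52% of uniquely aligned reads and ambiguous reads 0.61% to 1.02%. In HTSeq's usual output reads aligned to several places are not counted, which lowers values of genes that share sequence.

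Gene symbols, coordinates and exon lengths came from GENCODE M21 (GRCm38), joined by Ensembl identifier. Counts on genes were 12.26 to 17.14 M per mouse (median 14.14 M). The 27 pairs of mice of 1 dose all differed by more than sampling noise. Genes were kept by filterByExpr (minimum count 10, minimum total 15), scaled by TMM and fitted with edgeR 4.0.16 in R 4.3.3 (quasi-likelihood, 9 groups). Each dose was compared with vehicle, 30 with 3 µg/kg, all groups with one another, and expression with dose rank. The Benjamini-Hochberg adjustment ran over all genes of a comparison. Calls needed an adjusted p no higher than 0.05 and, for 2-group comparisons, a change of 1.5-fold or more. Standard errors are the estimate over the root of F. Log2 CPM used a prior count of 2. How often genes in general lie outside the range of other mice was not counted, so statements on overlap have no background. Mice are the replicates and were co-housed, and their cage is not given. Mice of 1 dose may share a cage, whereas the tests treat them as independent, so p-values can be too small.

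The 7 genes and all gene lists were chosen with earlier results of these data known. Of each list, up to 4 genes past the threshold at 30 µg/kg are named by smallest p, otherwise up to 3 by highest CPM, together with the 10 genes most like the members' mean over 27 mice and the 5 most like it within groups. Promoter windows of RefSeq (32851 windows of 27025 genes) were searched in the 250 bases before each start. The fit was tested on simulated data. Alternatives were DESeq2 1.42.0, its size factors, upper quartile, library size only, other filters, a covariate for index use, subsets of mice and leaving out each mouse. Python 3.11.15, pandas 2.3.3, scipy 1.17.1 and matplotlib 3.10.9 were used.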

Additional observations from a re-analysis of the deposited data

How the results depend on the processing

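The direction of all 7 class II genes at 10 and 30 µg/kg against vehicle and at 30 against 3 µg/kg was kept under every alternative run. Against vehicle at 30 µg/kg, 1 of 7 passed both limits, 5 with library size only and 6 without the fold limit. Scaling by library size alone moved the median of all genes at this dose to -0.11, from 0.02, so values under it are read relative to that shift. With 1 mouse left out the number was 0 (without mouse 67) to 6 (without mouse 68). At 30 against 3 µg/kg, 2 of 7 passed, 1 with at least 10 counts in every mouse, 0 with only the mice compared, 1 without mice 57, 58 and 65 (added after seeing the data), and 0 to 5 with 1 mouse left out. The trend passed for 7 genes, for 0 with index use as a covariate, 0 in the first index use, 1 in the second and 3 without mice 57, 58 and 65, and it stayed at 7 with 1 mouse left out. In the first index use the slope of Ciita reversed to 0.048 per dose step. Any difference among groups passed for 6 genes, 0 with index use as a covariate and 2 without mice 57, 58 and 65. With 1 mouse left out 8 counts moved by over 1.5 times and 73 did not, and under other settings 11 moved and 98 did not. Of the unmoved, 42 and 70 are counts of 0 at doses with no call and say nothing of stability. The cause of these shifts was not tested, except that subsets hold fewer mice. No paired analysis was possible because the labels give each mouse a number of its own and none that pairs mice of different doses. The numbers 1 to 3 within a dose only name mice. At 248 counts and more per mouse, counting error is small for these genes, whereas H2-Oa and H2-Eb2, at means of 2.28 and 3.92 CPM, are limited by depth as well.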
